A study of Mus musculus with 4 samples.

Results

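Mouse genes with a symbol made of Zfp and a number encode zinc finger proteins, the largest class of DNA-binding proteins in mammals. They were taken as every row of the deposited expression table whose symbol was Zfp followed by digits alone, which gave 224 rows of 11160. The 224 rows carry 223 symbols, because Zfp386 stands on 2 rows. A further 8 rows that join a Zfp symbol to another symbol and 15 with a letter after the number were left out by this rule. RefSeq lists 367 protein-coding genes of this naming pattern, and 222 of them were in the table; Zfp191 and Zfp259 are older symbols, now Zfp24 and Zpr1. All 224 rows passed the filter on low values.

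RNA was sequenced from neurospheres, floating clusters of dividing cells grown from the dorsal telencephalon of C57BL/6J embryos at E12.5. Each of 2 wild-type (WT) libraries and 2 Mcph1 knockout (Mcph1 KO) libraries was made from pooled cultures of 1 genotype. No strain, treatment or age difference between the groups is given, all cultures were expanded in growth factors, and the cells have left the tissue that surrounded them. Mcph1 encodes microcephalin, a chromosome condensation and DNA damage protein mutated in human primary microcephaly, and the study compared the transcriptomes of cells with and without it.

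In a C2H2 zinc finger, a pair of cysteines and a pair of histidines hold a zinc ion, and tandem fingers read successive short stretches of DNA. Many mouse Zfp proteins also carry a KRAB box at the amino terminus. This box recruits Trim28, also called KAP1, which brings the histone methyltransferase Setdb1 and heterochromatin proteins to silence retroelements and imprinted regions. Zfp proteins without a KRAB box include activators, chromatin cofactors, RNA-binding proteins and spindle proteins.

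Promoter windows are shown for 5 genes, each from 250 bases before to 50 after a RefSeq start on GRCm38.p6, 5′ to 3′ on the gene's strand. Zfp46 and Zfp335 had the smallest p-values of the class in the genotype comparison, and Zfp426 had the lowest estimate. Zfp93 and Zfp108 are neighbours that share a promoter element. The windows are chr4:136285817-136286116 for Zfp46 (plus strand, 1 of its RefSeq windows), chr2:164911701-164912000 for Zfp335 (minus), chr9:20492697-20492996 for Zfp426 (minus), chr7:24270168-24270467 for Zfp93 (plus) and chr7:24254544-24254843 for Zfp108 (plus). Capitals mark matches to a CCAAT box (CCAAT, read here as ATTGG) in Zfp46, to a GC box (GGGCGG, read as CCGCCC) in Zfp426, and to a Zfp143 element (its letters ACTACAATT, read as AATTGTAGT) in Zfp93 and Zfp108.
Zfp46: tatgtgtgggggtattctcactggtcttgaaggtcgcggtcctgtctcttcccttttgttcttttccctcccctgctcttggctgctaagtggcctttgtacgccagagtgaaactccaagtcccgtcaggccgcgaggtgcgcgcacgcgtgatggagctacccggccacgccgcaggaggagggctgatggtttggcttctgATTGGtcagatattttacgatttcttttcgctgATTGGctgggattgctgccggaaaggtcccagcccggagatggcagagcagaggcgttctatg
Zfp335: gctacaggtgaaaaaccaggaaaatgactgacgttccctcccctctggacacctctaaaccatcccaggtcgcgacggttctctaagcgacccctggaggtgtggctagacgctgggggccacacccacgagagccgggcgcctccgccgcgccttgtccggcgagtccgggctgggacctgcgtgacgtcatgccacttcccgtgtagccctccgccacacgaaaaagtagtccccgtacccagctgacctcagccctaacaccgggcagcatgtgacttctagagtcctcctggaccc
Zfp426: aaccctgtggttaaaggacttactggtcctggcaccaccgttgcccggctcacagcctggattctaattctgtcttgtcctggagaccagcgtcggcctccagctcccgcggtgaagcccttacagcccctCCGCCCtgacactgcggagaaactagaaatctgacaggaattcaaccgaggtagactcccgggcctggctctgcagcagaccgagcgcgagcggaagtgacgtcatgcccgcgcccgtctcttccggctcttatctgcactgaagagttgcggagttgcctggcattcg
Zfp93: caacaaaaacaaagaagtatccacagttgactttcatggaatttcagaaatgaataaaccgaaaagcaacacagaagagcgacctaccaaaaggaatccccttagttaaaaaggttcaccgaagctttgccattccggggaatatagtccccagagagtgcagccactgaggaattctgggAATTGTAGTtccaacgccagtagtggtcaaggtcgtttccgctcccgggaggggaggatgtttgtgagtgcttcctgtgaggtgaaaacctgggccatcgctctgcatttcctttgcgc
Zfp108: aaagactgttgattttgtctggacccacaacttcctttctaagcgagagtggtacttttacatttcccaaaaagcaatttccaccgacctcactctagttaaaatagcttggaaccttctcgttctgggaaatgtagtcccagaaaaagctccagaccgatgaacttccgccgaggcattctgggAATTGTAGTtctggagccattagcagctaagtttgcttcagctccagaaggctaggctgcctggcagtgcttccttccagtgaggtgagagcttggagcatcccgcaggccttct
The window of Zfp335 held no match to these 3 motifs. Nor did the Zfp46 window that is not shown, chr4:136284426-136284725.

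RefSeq windows were found for 187 of the 223 symbols, and both strands were searched. The Zfp143 element, bound by the product of the class member Zfp143, was in the windows of 8 Zfp genes, or 4.28%, against 0.941% of the genes of the deposited table and 0.448% of all genes with a window. Those 8 genes were Zfp933, Zfp128, Zfp180, Zfp108, Zfp93, Zfp1, Zfp454 and Zfp692. A GC box was found for 50.8% of the Zfp genes against 71.9% of the table's genes. A CCAAT box was found for 51.3% against 44.2%, and TATAAA for 8.02% against 8.39%; over all genes with a window the GC, CCAAT and TATAAA shares were 38.2%, 41.1% and 15.7%. None of these motifs contains another. Of the 20 genes with the smallest p, 14 had a window, and a CCAAT box was in 5, a GC box in 6, TATAAA in 2 and the Zfp143 element in 0.

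The proteins fell into a large KRAB group and a smaller mixed group. A 40-residue KRAB profile, scored against the translated coding transcripts, gave 132 rows a score above 0, and these are called KRAB-type. The profile was built from Zfp proteins that matched a KRAB pattern, so those proteins score high by construction. Of these, 123 scored over 60 and 9 lay between 0 and 60, namely Zfp13, Zfp189, Zfp202, Zfp213, Zfp286, Zfp37, Zfp597, Zfp746 and Zfp956. Nearest the threshold, Zfp956 scored 2.32 and Zfp180 scored -2.45, and the highest of 30 Zbtb and Klf proteins, zinc finger families that lack the box, scored -25.3. The 92 other rows include Zfp939, which had no coding transcript and was not scored.

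Finger number varied from 0 to 33 with a median of 11. It had a median of 12 in the KRAB-type proteins (2 to 23) and of 8 in the others (0 to 33). In all, 127 proteins had 10 or more fingers and 43 had 0 to 5. The most fingers were in Zfp462 with 33, Zfp236 with 30, and Zfp521 and Zfp646 with 27 each. Zfp259, Zfp330 and Zfp365 had 0 matches to the C2H2 pattern; Zfp259 (Zpr1) is a translation-factor-binding protein with zinc fingers of another type.

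**Figure D1:**
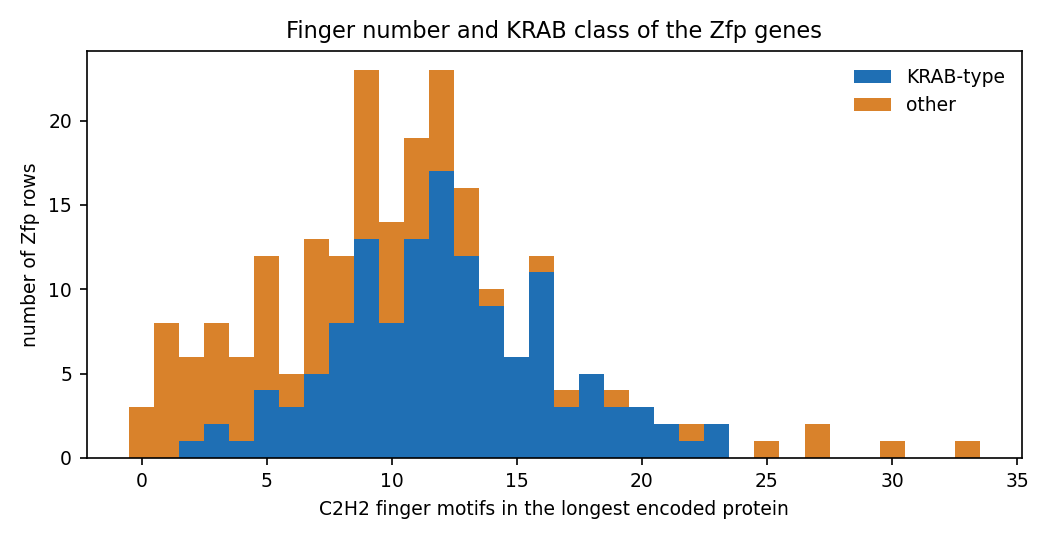
Number of Zfp rows (y axis) by the number of C2H2 finger motifs in the longest encoded protein (x axis), stacked by KRAB-type (blue) and other (orange). KRAB-type proteins spread from 2 to 23 fingers with a median of 12, and the others reach both 0 and 33.

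Among genes with a row in the deposited table of expressed genes, the Zfp genes were of ordinary height. Genes without a row, among them part of the 367 RefSeq genes of this naming pattern, do not enter the comparison. The median Zfp gene stood at 33.4 scaled CPM (the deposited value after scaling, as a share of the mean library total times 1000000), against 33.7 over the 10959 features tested. Per kilobase of transcript the median was 9.82 CPM, against 11.6 over the tested features with a length. The KRAB-type and other rows had the same per-kilobase median of 9.82. Zfp transcripts were longer and lower in GC than the rest, with a median length of 3485 bases against 3176 and a median GC content of 45.1% against 49.3%. KRAB-type transcripts had a median GC of 43.0% and the others of 49.6%.

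The class spanned a 190-fold range of levels per kilobase. Zfp207, whose product BuGZ binds Bub3 and helps chromosomes align on the spindle, was highest at 109 CPM per kb, followed by Zfp146 at 106 and Zfp644, a partner of the histone methyltransferase G9a, at 90.8. Then came Zfp260 at 63.7, Zfp605 at 54.4, Zfp428 at 50.7, Zfp869 at 49.2, Zfp664 at 45.6, Zfp68 at 42.1 and Zfp931 at 39.4. In all, 15 rows were over 30 CPM per kb and 4 were under 1. Zfp207 stood at 248 and 351 CPM in WT 1 and WT 2 and at 321 and 339 in KO 1 and KO 2, so the KO values lay between the WT values. Zfp644 had 509 and 587 CPM in the WT libraries and 556 and 449 in the KO libraries. Its groups overlapped too.

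The lowest mean levels were those of Zfp956 at 3.76 CPM, Zfp28 at 3.98, Zfp407 at 4.68, Zfp810 at 4.70 and Zfp449 at 5.36. Zfp810 rested on 17 reads in KO 2, the smallest number for any Zfp row in any library. KRAB zinc finger genes are a family of close paralogs, and the way reads shared between paralogs were counted is not given, so the count of a single KRAB-type gene is uncertain to that extent.

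As a share of each library's own total, the Zfp rows held 0.970% in WT 1, 1.15% in WT 2, 1.28% in KO 1 and 0.935% in KO 2. In scaled CPM their sums were 9571, 11715, 11914 and 9930 in that order, so KO 1 was highest on both measures and the lowest library was KO 2 by share and WT 1 by scaled CPM. The recovered reads per library were 7109365 in WT 1, 22347416 in WT 2, 10936719 in KO 1 and 5975471 in KO 2, and the median Zfp row had 217.5, 755, 452.5 and 177.5 reads in that order. Fewer cells of a type and less RNA per cell cannot be told apart in these bulk samples.

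Markers of the labelled cell type were present: all 12 radial glia and progenitor genes of a marker list were in the table, at a summed 13043 and 13369 CPM in WT 1 and WT 2 and 6412 and 9184 in KO 1 and KO 2. Fabp7, at 5307 and 5387 CPM in WT and 2020 and 2263 in KO, gave much of that gap; 5 of the 12 had estimates above 0 and 7 below, with median deviations from the WT mean of -0.24 in KO 1 and 0.060 in KO 2. Of 16 neuron markers, 13 were in the table, summing to 956, 1054, 2019 and 909 CPM in that order. Rbfox3, Nefm and Slc17a6 were not in it. Astrocyte markers (6 of 6) summed to 2220, 1024, 1363 and 1906 CPM and oligodendrocyte-lineage markers (7 of 7) to 1018, 994, 677 and 974.6. Of 4 intermediate progenitor markers only Btg2 was in the table, and 0 of the microglial, vascular, meningeal and erythroid markers were. Mcph1 itself was at 21.1 and 21.6 CPM in WT and 19.5 and 20.3 in the KO libraries, a log2 fold change of -0.10 (SE 0.24) with a 95% interval from -0.68 to 0.48 and an adjusted p of 0.921 by limma. Which part of the gene was deleted is not given, so this level does not check the labels, and the libraries are called KO-labelled or KO here.

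No Zfp gene passed the test between genotypes. By limma on log2(scaled value + 1), 0 of 224 rows were called at an adjusted p under 0.05, as were 0 of all 10959 features (0%). The smallest adjusted p was 0.655 for a Zfp row and 0.631 over all features. At an unadjusted p under 0.05 there were 8 Zfp rows, or 3.57%, against 7.58% of all features. Of these 8, 7 were higher in KO (3.58% of all features were) and 1 was lower (4.01%). On the recovered reads, limma-voom and the quasi-likelihood test of edgeR each called 0 Zfp rows (0% of features) and gave 11 (background 8.26%) and 10 (7.91%) at an unadjusted p under 0.05. DESeq2 called 0 of the 66 Zfp rows to which it gave an adjusted p, against 0.268% of 3732 features, and gave 7 at an unadjusted p under 0.05 (7.26%).

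Estimates for the Zfp genes were small and leaned upward. They ran from -0.83 for Zfp426 to 0.97 for Zfp202 on the log2 scale, with an SD of 0.31 across rows against 0.45 over all features. No Zfp row lay beyond 1 in either direction, where 2.80% of all features did. The median was 0.097 against 0.012 over all features, and 140 rows (62.5%) had an estimate above 0, against 51.4%. Both KO libraries lay above both WT libraries in 59 rows (26.3%, background 21.1%) and below both in 18 (8.04%, background 20.03%). The lean rested on particular libraries: the median was -0.010 without WT 1, 0.21 without WT 2, -0.054 without KO 1 and 0.21 without KO 2. Because these counts share the same libraries across rows, they describe these 4 libraries.

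**Figure D2:**
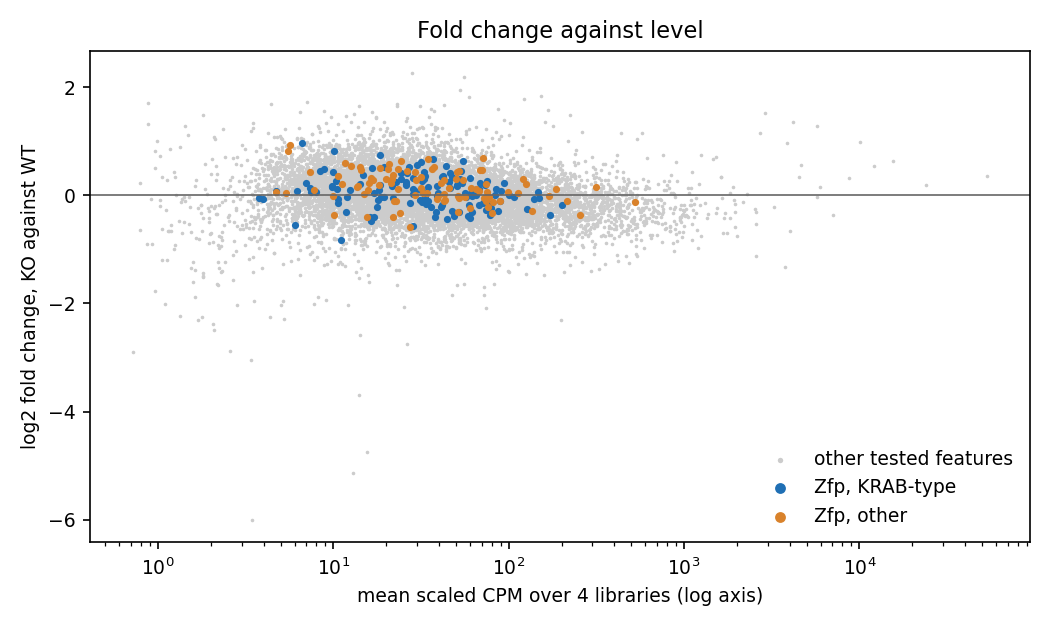
Log2 fold change of KO against WT (y axis) against the mean scaled CPM over 4 libraries (x axis, log scale), for KRAB-type Zfp rows (blue), other Zfp rows (orange) and the other tested features (grey). All Zfp rows lie between -0.83 and 0.97, inside the spread of the grey points.

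KRAB-type rows had a median estimate of 0.074 with 78 of 132 above 0, and the other rows one of 0.13 with 62 of 92 above 0. Both KO libraries exceeded both WT libraries in 26 KRAB-type rows (19.7%) and 33 other rows (35.9%), against 21.1% of all tested features. They fell below both in 12 KRAB-type rows (9.09%) and 6 other rows (6.52%), against 20.03%. The difference between the classes was not tested.

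The smallest p-value belonged to Zfp46, a gene outside the KRAB-type class that encodes 12 fingers. It stood at 54.1 and 54.3 CPM in WT 1 and WT 2 and at 91.5 and 84.3 in KO 1 and KO 2. Both KO libraries were above both WT libraries by far more than the gap within either pair. By limma this was a log2 fold change of 0.69 (SE 0.22) with a 95% interval from 0.17 to 1.21 and an adjusted p of 0.655, which did not pass.

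Zfp335 came next. It encodes a subunit of histone methyltransferase complexes, is required for neural progenitor proliferation, and is itself a human primary microcephaly gene. Its levels were 28.04 and 25.3 CPM in WT and 43.8 and 40.9 in KO 1 and KO 2, again without overlap. The log2 fold change was 0.67 (SE 0.23, adjusted p = 0.655, limma). Its estimate stayed between 0.59 and 0.74 when any 1 library was left out.

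Zfp426 was the one Zfp gene lower in KO at an unadjusted p under 0.05. WT 1 and WT 2 had 14.3 and 13.7 CPM and KO 1 and KO 2 had 9.60 and 6.40, of which the last rested on 36 reads. The groups did not overlap, and the log2 fold change was -0.83 (SE 0.32, adjusted p = 0.655, limma). Of its neighbours in the RefSeq gene order, Zfp26 and Zfp266 had estimates of -0.38 and -0.39 with overlapping groups, and Zfp846 had 0.33.

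The other genes of the 8 were Zfp9, Zfp202, Zfp398, Zfp583 and Zfp668, and all 5 had both KO libraries above both WT libraries. Zfp9 had 45.9 and 39.8 CPM in WT and 70.2 and 62.9 in KO (log2 fold change 0.64). Zfp202, whose human counterpart represses genes of lipid metabolism, had 5.27 and 3.70 CPM in WT and 8.75 and 8.71 in KO (0.97). These are low levels, at 49 reads in KO 2.

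Zfp398 had 7.91 and 6.54 CPM in WT and 14.2 and 11.4 in KO (log2 fold change 0.81). Zfp583 had 15.5 and 11.98 CPM in WT and 25.5 and 20.4 in KO (0.74). Zfp668, linked to DNA repair in human cells, had 3.61 and 4.02 CPM in WT and 8.75 and 6.22 in KO (0.94). Adjusted p-values for these 5 were all 0.655 by limma, so none passed.

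Of the 20 genes with the smallest p, the other 12 had unadjusted p-values above 0.05. Zfp30, Zfp612, Zfp7, Zfp523, Zfp358, Zfp652, Zfp532, Zfp64, Zfp704 and Zfp236 had estimates above 0, from 0.47 for Zfp532 to 0.81 for Zfp236. Zfp7 had 21.8 and 22.1 CPM in WT and 32.5 and 30.9 in KO. Zfp523, a relative of Zfp143, had 14.7 and 18.6 CPM in WT and 27.7 and 22.4 in KO.

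Zfp64 had 18.5 and 18.9 CPM in WT and 22.6 and 37.2 in KO, with KO 2 well above KO 1. Zfp938 and Zfp637 had estimates below 0, at -0.43 and -0.59. Zfp938 had 49.4 and 52.1 CPM in WT and 38.5 and 36.6 in KO, and Zfp637 had 30.7 and 34.01 in WT and 27.0 and 17.1 in KO. Over the 20 genes the groups did not overlap in any, which the ranking by p favours, and adjusted p-values were 0.655 to 0.672 by limma.

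**Figure D3:**
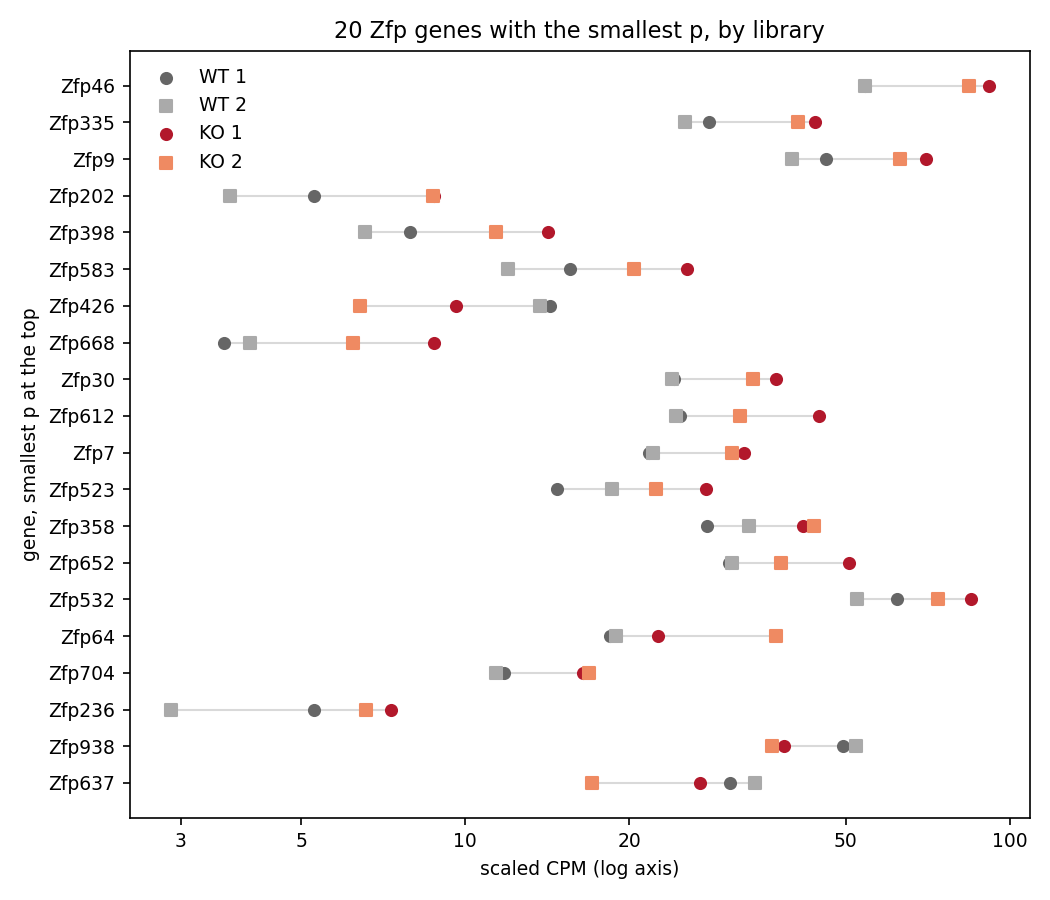
Scaled CPM (x axis, log scale) in each of the 4 libraries for the 20 Zfp genes with the smallest p, ordered from the smallest p at the top (y axis); grey symbols are WT 1 and WT 2, red and orange symbols KO 1 and KO 2. The symbols of Zfp46 sit at 54.1 and 54.3 for WT and at 91.5 and 84.3 for KO, and Zfp426, Zfp938 and Zfp637 are the genes with the KO symbols on the left.

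Genes that silence imprinted regions and retroelements showed no shared direction. Of 6 on this list, 5 were in the table (Zfp708 was not), 3 with estimates above 0 and 2 below, a median of 0.054, and 0 called (0% of features). Zfp57, which protects imprinted methylation after fertilization, had 33.3 and 32.7 CPM in WT and 80.2 and 28.6 in KO. Its 2 KO libraries lay on opposite sides of the WT libraries. Zfp445, which shares this task, had 32.2 and 34.3 CPM in WT and 36.7 and 25.4 in KO.

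Zfp809, a silencer of proviral DNA, had 17.9 and 16.1 CPM in WT and 15.3 and 24.7 in KO. Zfp568, which represses a placental Igf2 transcript, had 8.05 and 7.22 CPM in WT and 10.4 and 6.04 in KO. Zfp932, which binds endogenous retroviruses, had 72.7 and 120 CPM in WT and 86.5 and 67.2 in KO. The groups overlapped in all 5.

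Of 14 genes known from neural development or neurodevelopmental disease, 7 were in the table under the listed symbol. Of these 7, 4 had estimates above 0 and 3 below. Their median was 0.29 and 0 were called. Zfp521, which drives early neural differentiation, had 38.0 and 47.5 CPM in WT and 79.9 and 42.3 in KO, so KO 1 alone was high. Zfp462, a chromatin factor mutated in a human developmental syndrome, had 36.8 and 52.3 CPM in WT and 72.1 and 40.2 in KO, the same shape.

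Zfp711, an X-linked intellectual disability gene in humans, had 17.3 and 29.0 CPM in WT and 31.2 and 13.9 in KO. Zfp292 had 19.4 and 26.4 CPM in WT and 25.8 and 17.2 in KO. Zfp191, needed for myelination in mice, had 43.5 and 62.4 CPM in WT and 43.1 and 57.9 in KO. Only Zfp335 and Zfp365, a centrosomal protein that binds Disc1, had groups that did not overlap; Zfp365 had 13.05 and 16.2 CPM in WT and 17.6 and 18.8 in KO, with a log2 fold change of 0.32 (SE 0.27, adjusted p = 0.756, limma). Both KO libraries lay above both WT libraries in 2 of the 7, and in 21.1% of all tested features. Without a row under the listed symbol were Zfp238, Zfp423, Zfp488, Zfp503, Zfp536, Zfp609 and Zfp703. Zfp238 is an older symbol of Zbtb18, which had a row and was not counted in this list. Zbtb18 had a mean of 246.5 CPM and a log2 fold change of -0.097.

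Of 3 genes of mitosis, Zfp207 and Zfp365 were in the table and Zfp827 was not; both estimates were above 0, at 0.16 and 0.32, and 0 were called.

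Among 15 chromatin and transcription cofactors, 11 were in the table, 5 with estimates above 0 and 6 below, a median of -0.0066, and 0 called. Zfp217, a CoREST-associated repressor, had 11.0 and 7.41 CPM in WT and 16.7 and 11.4 in KO (log2 fold change 0.61, SE 0.35). Zfp384 had 18.3 and 20.2 CPM in WT and 31.6 and 23.3 in KO (0.49, SE 0.27), and Zfp451, a SUMO ligase, had 20.3 and 17.6 in WT and 23.9 and 25.2 in KO (0.38, SE 0.25). In these 3 of the 11 both KO libraries were above both WT libraries, as they were in 21.1% of all tested features.

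The other 8 had overlapping groups and estimates from -0.13 to 0.21. They were Zfp143, Zfp281 (a pluripotency regulator), Zfp148, Zfp219, Zfp687, Zfp644, Zfp410 (the activator of Chd4) and Zfp131. Zfp143, whose element stands in the windows of Zfp93 and Zfp108, had 64.1 and 83.7 CPM in WT and 77.9 and 74.7 in KO. Zfp281 had 152 and 187 CPM in WT and 178 and 157 in KO.

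Of 12 genes of RNA binding, ribosome assembly and translation, 9 were in the table, 5 with estimates above 0 and 4 below, a median of 0.12, and 0 called. Both KO libraries were above both WT libraries for Zfp106, which binds RNA repeats (107 and 107 CPM in WT, 121 and 144 in KO). The same held for Zfp598, a ubiquitin ligase for stalled ribosomes (21.5 and 23.0 in WT, 28.04 and 33.1 in KO), and for Zfp346, which binds double-stranded RNA (6.80 and 5.62 in WT, 9.43 and 7.47 in KO). Zfp330, a nucleolar protein, had both KO libraries below both WT libraries (27.6 and 25.8 in WT, 20.5 and 22.2 in KO; log2 fold change -0.32, SE 0.24). Zfp259, Zfp326, Zfp593, Zfp622 and Zfp830 had overlapping groups and estimates from -0.037 to 0.14. Of the 9, 3 thus had both KO libraries above both WT libraries and 1 below. The shares over all tested features were 21.1% and 20.03%.

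Zfp levels also differed between libraries of the same genotype. Relative to the WT mean of each gene, the median Zfp row stood at -0.10 in WT 1, 0.10 in WT 2, 0.22 in KO 1 and -0.054 in KO 2 on the log2 scale. The 2 WT values mirror each other by construction, as the WT mean is that of these 2 libraries. The corresponding medians over all tested features were within 0.01 of 0, which the scaling between libraries favours. WT 2 exceeded WT 1 in 162 rows (72.3%, against 49.98% of all features) with a median difference of 0.20. KO 1 exceeded KO 2 in 170 rows (75.9%, against 51.3%) with a median difference of 0.27.

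KO 1 was above the WT mean in 168 rows (75.0%, background 50.4%) and KO 2 in 101 (45.1%, background 50.7%). Both KO libraries were above the WT mean in 84 rows and both below in 39. In 84 rows KO 1 was above and KO 2 below, and in 17 the reverse held. The KO 1 to KO 2 difference had a median of 0.33 in the KRAB-type rows and 0.20 in the others, and the WT 2 to WT 1 difference one of 0.25 and 0.20.

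**Figure D4:**
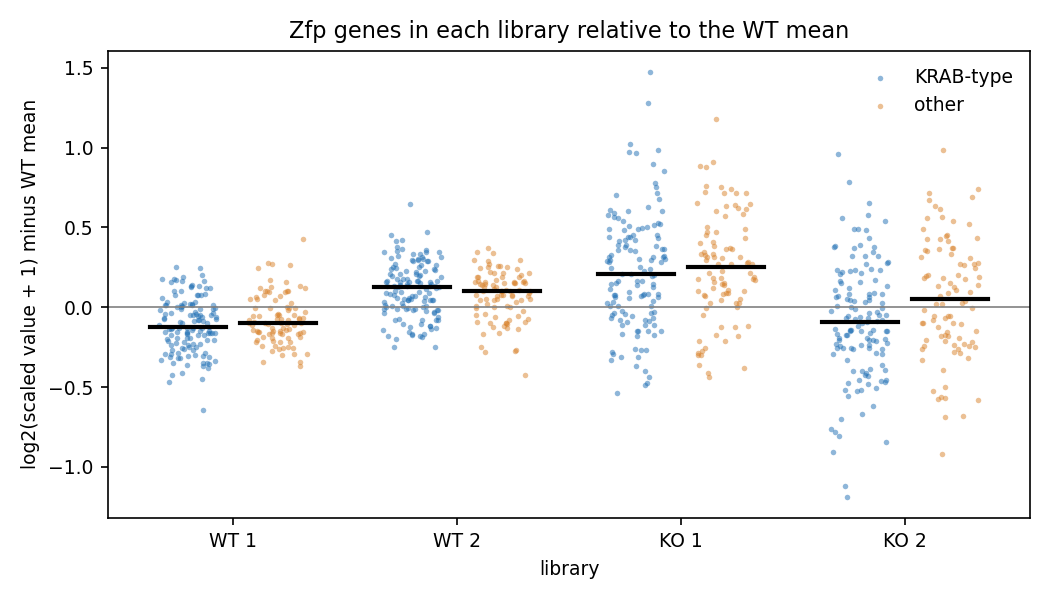
Each point is a Zfp row in 1 library, plotted by log2(scaled value + 1) minus the WT mean of that row (y axis), for the 4 libraries (x axis) and for KRAB-type (blue) and other rows (orange); black bars are medians. The KRAB-type medians are -0.12, 0.12, 0.21 and -0.091 in WT 1, WT 2, KO 1 and KO 2. Those of the other rows are -0.10, 0.10, 0.25 and 0.054. The WT 1 and WT 2 medians of a class mirror each other by construction.

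Neuron markers moved with KO 1 as well. Their median deviation from the WT mean was 1.51 in KO 1 and -0.17 in KO 2, and their summed level in KO 1, 2019 CPM, was the highest of the 4 libraries. WT 2, the other library with high Zfp levels, had neuron markers at 1054 CPM, near the 956 of WT 1. WT 2 was also the deepest library and KO 2 the shallowest. Astrocyte markers had median deviations of 0.53, -0.53, -0.051 and 0.36 in WT 1, WT 2, KO 1 and KO 2. Those of the radial glia and progenitor markers were -0.015, 0.015, -0.24 and 0.060. Oligodendrocyte-lineage markers had 0.0098, -0.0098, -0.52 and 0.044. The part of neuron, astrocyte or other cell content or of depth in the Zfp levels was not tested.

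The KO libraries differed more than 2-fold from each other in 9 Zfp genes (4.02%, against 9.94% of all features), and KO 1 was the higher in all 9. The WT libraries differed that much in 1, Zfp433, at 19.7 CPM in WT 1 and 48.3 in WT 2 (0.446%, against 4.71%). The 9 were Zfp57, Zfp286, Zfp433, Zfp558, Zfp606, Zfp711, Zfp810, Zfp811 and Zfp821, and apart from Zfp57, Zfp711 and Zfp810 they are named after their values were seen. The gap was widest for Zfp811, at 28.6 and 23.5 CPM in WT and 72.1 and 23.5 in KO. KO 1 alone stood apart, and KO 2 matched WT 2.

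Zfp57, given above, had the same shape, with 80.2 CPM in KO 1 and 28.6 in KO 2. With KO 2 left out, the log2 fold changes were 1.47 for Zfp811 and 1.27 for Zfp57. The lone KO 1 was there assumed to vary like the WT libraries. Without KO 1 the estimates of Zfp811 and Zfp57 were -0.14 and -0.21. With all 4 libraries they were 0.67 (SE 0.51) and 0.54 (SE 0.47).

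Zfp606 and Zfp286 took another shape. Zfp606 had 104 and 168 CPM in WT and 156 and 77.9 in KO, and Zfp286 had 31.8 and 50.3 in WT and 49.4 and 21.3 in KO. In both, KO 1 lay beside WT 2, and KO 2 lay below WT 1.

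**Figure D5:**
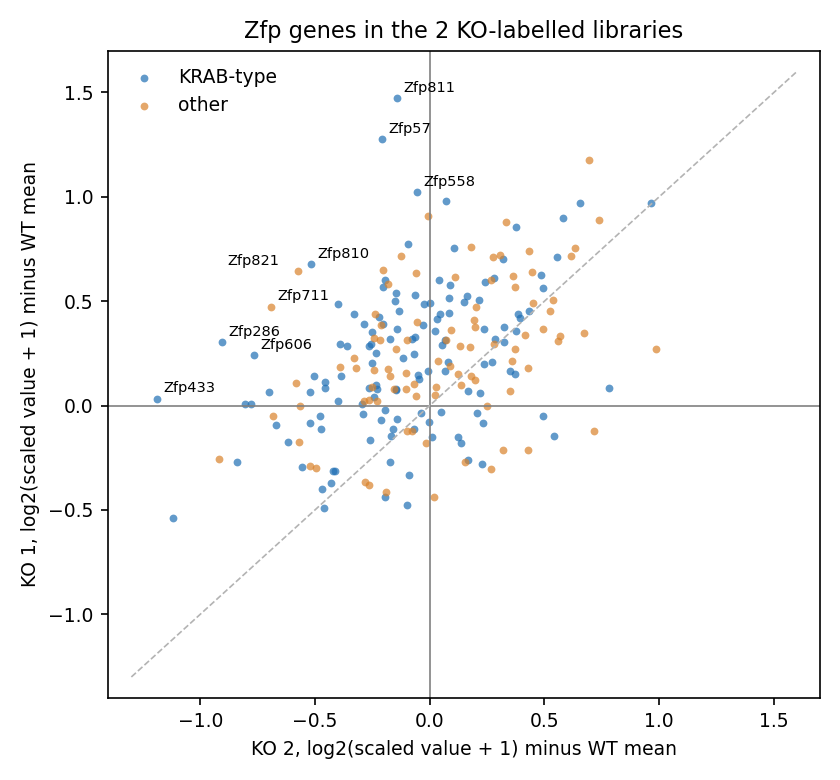
Deviation of each Zfp row from its WT mean on the log2(scaled value + 1) scale in KO 2 (x axis) and KO 1 (y axis), KRAB-type in blue and other rows in orange; the dashed line marks equal values. The 9 named genes lie more than 1 above the line, and 84 rows lie at the upper left, above the WT mean in KO 1 and below it in KO 2.

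Many Zfp genes stand beside each other in the genome, and most runs of 3 or more neighbours held estimates of both signs. With at most 1 other protein-coding gene between members in the RefSeq order, 102 rows, 78 of them KRAB-type, fell into 37 groups of 2 or more, and 52 rows into 12 groups of 3 or more. Estimates lay on both sides of 0 in 11 of the 12 groups of 3 or more. Since 62.5% of all Zfp estimates were above 0, groups of unrelated Zfp rows would often hold both signs too. Neighbours were not tested against such groups. The exception was Zfp108, Zfp93 and Zfp61, at 0.11 to 0.14; Zfp93 had 27.3 and 27.0 CPM in WT and 28.5 and 30.6 in KO, and Zfp108 had 7.63 and 6.45 in WT and 7.31 and 8.18 in KO. Zfp108 and Zfp93 are the 2 of this group with the Zfp143 element in a window. Over the 8 Zfp genes with the element, estimates ran from -0.079 for Zfp180 to 0.36 for Zfp1. A link between the element and the estimates was not tested.

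The largest group held 13 genes: Zfp84, Zfp30, Zfp790, Zfp940, Zfp27, Zfp383, Zfp74, Zfp568, Zfp14, Zfp82, Zfp260, Zfp382 and Zfp146. Their levels ran from 1.15 CPM per kb for Zfp568 to 106 for Zfp146, and their estimates from -0.37 for Zfp260 to 0.56 for Zfp30. KO 1 was above the WT mean in 11 of the 13 and KO 2 in 5. The shares over all Zfp rows were 75.0% and 45.1%. Zfp30 had 24.2 and 24.0 CPM in WT and 37.2 and 33.8 in KO, while Zfp260, in the same group, had 247 and 329 in WT and 253 and 192 in KO.

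The proteins that KRAB boxes work through were not called either. Of 34 on the partner list, 31 were in the table (Dnmt3b, Fam208a and Wiz were not), 18 with estimates above 0 and 13 below, a median of 0.031, and 0 called. Trim28 had 223 and 270 CPM in WT and 301 and 220 in KO, with KO 1 the highest and KO 2 the lowest. Setdb1 had 57.7 and 57.4 CPM in WT and 68.1 and 76.3 in KO (log2 fold change 0.32, SE 0.22).

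The partners with the smallest p were Cbx3, a heterochromatin protein (178 and 264 CPM in WT, 129 and 137 in KO; log2 fold change -0.70), and Uhrf1, a cofactor of maintenance methylation (94.4 and 126 in WT, 78.8 and 58.1 in KO; -0.69). Rbbp4, a histone chaperone, had 238 and 297 CPM in WT and 192 and 154 in KO (-0.63). Atf7ip, a Setdb1 cofactor, had 60.8 and 51.7 in WT and 80.1 and 78.4 in KO (0.50). The groups did not overlap in these 4, which the choice by p favours. Adjusted p-values were 0.655 for the first 3 and 0.658 for Atf7ip by limma. Over the 31 partners in the table, both KO libraries lay above both WT libraries in 6 and below both in 5. The shares over all tested features were 21.1% and 20.03%.

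Other zinc finger families gave a mixed picture. Zbtb genes, which join fingers to a BTB domain, numbered 23, with 17 estimates above 0 and a median of 0.085; their median deviation was 0.25 in KO 1 and 0.041 in KO 2. Zscan genes had 5 of 6 estimates above 0 (median 0.11) and Zkscan genes 4 of 8 (-0.041). Klf genes, a family of Krüppel-like activators and repressors, had 1 of 7 above 0 (-0.078), and their median deviation was -0.45 in KO 1 and 0.20 in KO 2, opposite in sign to that of the Zfp rows in each. These differences between families were not tested.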

How the data were processed

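Total RNA from 4 libraries was depleted of ribosomal RNA, made into strand-specific libraries and read at 75 bases in 1 lane, per the labels' protocols. STAR 2.3.0, DESeq 1.12.1, SAMtools 0.1.19, Picard 1.119 and FastQC 0.10.1 are listed in the submitters' processing notes, without settings. Build, annotation, filter and counting rule were not given in the sources used here.

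The deposited signal per gene, made by the authors, behaved as read counts divided by 1 factor per library: 100.0% of values were whole multiples of 1 step within 0.01. The step gives the reads. In WT 2 the smallest value was 2 steps.

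The deposited values were scaled by TMM factors (edgeR 4.0.16, R 4.3.3), kept by filterByExpr with a minimum of 10, and tested as log2(scaled value + 1) with limma 3.58.1, with a mean-variance trend, two-sided, all 4 libraries, genotype only and Benjamini-Hochberg adjustment over 10959 features at 0.05. A fold change on this scale understates the change of low genes. DESeq2 1.42.0, edgeR's quasi-likelihood test and limma-voom ran on the recovered reads. The scripts were tested on simulated data. There limma called 10.4% of 2-fold changes and 87.2% of 4-fold changes, with 9.9 false calls. DESeq2 called 21.8% and 93.0%, with 23.0 false calls. Most simulated 2-fold changes were thus missed by either tool. Each simulated gene varied independently, without differences between libraries that many genes share. Changes were given only to genes above a low read count. These shares describe the simulation and need not hold for the real libraries, where limma called 0 of 10959 features. Nothing in the labels says that the 2 pools of a genotype came from separate litters, so p-values measure the spread between these pools.

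Finger motifs (C, 2 to 4 residues, C, 12 residues, H, 3 to 5 residues, H), the KRAB profile, lengths and GC came from GENCODE M21 coding transcripts, matched by symbol, for 223 of 224 rows (length for 224, and for 89.7% of tested features). Promoter windows and gene order came from RefSeq GRCm38.p6. Genes named in the text were the 20 smallest p, the 10 highest levels per kb, the 5 lowest levels, the role lists, the 4 partners with the smallest p, any gene called by a tool, and Mcph1. Groups of neighbouring genes were described as well, and genes that differed more than 2-fold between libraries of 1 genotype, genes with the Zfp143 element and genes at the KRAB or finger extremes were named after their values were seen. The members and lists were chosen with earlier results of these data known. Lists were matched by the symbol as listed, so a gene deposited under another symbol counts as absent.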

Additional observations from a re-analysis of the deposited data

How the results depend on the processing

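No Zfp row was called under another scaling, filter, pseudocount, threshold of 0.1, tool, replicate block or length and GC correction. With 1 library left out the count ran from 0 to 1, the 1 being Zfp811 without KO 2. Over all features 0 were called, but 6 on the values as deposited, 10 with DESeq2, and 0 to 179 with 1 library left out (25 without KO 1, 179 without KO 2). The median Zfp estimate was -1.16 on the deposited scale, where the median of all features was -1.25, a difference of 0.089, and 0 Zfp estimates lay above 0; the factors of the deposited values shift every gene. With 1 library left out the median ran from -0.054 to 0.21, and the estimates above 0 numbered 101 to 172, against 140. Same-numbered libraries deviated from their group means with a correlation of -0.308 across features. With 1 difference between libraries per genotype, this cannot decide whether same-numbered pools were paired. The replicate block gave 0 Zfp rows and 0 features called. The crossed pairing, chosen after seeing the data, also gave 0 and 0.

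For single genes, the estimates on the deposited scale were taken relative to the median of all features there, and the crossed pairing, which leaves estimates as they are, was not counted. So taken, 832 estimates of 58 genes under the alternatives had the same sign and the same side of the threshold, 1 passed it (Zfp811) and 37 changed sign, 33 of these with a library left out; none of the 20 genes with the smallest p did so. After the length and GC correction Zfp131 stood at 0.024, Zfp568 at -0.081 and Zfp830 at 0.11, and limma-voom gave Zfp219 0.0060. The cause was not tested. With 1 library left out, these log2 fold changes crossed 0: Zfp131 (-0.34 to 0.14), Zfp143 (-0.13 to 0.25), Zfp148 (-0.23 to 0.014), Zfp191 (-0.32 to 0.20), Zfp207 (-0.091 to 0.41), Zfp219 (-0.13 to 0.11), Zfp259 (-0.19 to 0.18), Zfp281 (-0.16 to 0.14), Zfp292 (-0.39 to 0.17), Zfp326 (-0.049 to 0.32), Zfp410 (-0.27 to 0.065), Zfp445 (-0.39 to 0.13), Zfp462 (-0.13 to 0.71), Zfp521 (-0.0061 to 0.90), Zfp568 (-0.33 to 0.43), Zfp57 (-0.21 to 1.27), Zfp593 (-0.31 to 0.27), Zfp622 (-0.011 to 0.25), Zfp644 (-0.28 to 0.014), Zfp711 (-0.69 to 0.46), Zfp809 (-0.16 to 0.54), Zfp811 (-0.14 to 1.47), Zfp830 (-0.16 to 0.071) and Zfp932 (-0.65 to 0.066). The smallest Zfp read count, 17 in KO 2, limits precision for the lowest genes, and pools without molecular identifiers leave only counting error and the spread of 2 pools to judge by.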
